A study of Mus musculus with 69 samples.

Results

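The EGR2-dependent late IL-4 genes are 93 mouse genes selected on their own expression values in bone marrow-derived macrophages (BMDMs) with and without the transcription factor EGR2. A gene was taken when log2(TPM + 1), averaged over 2 libraries, rose by more than 1 between basal and 24 hours of IL-4 in cells with EGR2, when it was lower by more than 1 at 24 hours in cells without EGR2, and when both 24-hour libraries with EGR2 held at least 2 TPM. TPM is a transcript level corrected for gene length and library size. Of 24537 genes in the table, 10294 passed the level, 274 of these rose, and 93 of the 274 met the rule. The other 181 genes that rose serve below as the comparison. The term EGR2-dependent refers here to the level at 24 hours, not to the size of the rise over basal.

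BMDMs were grown from bone marrow of female mice aged 8 to 12 weeks in medium with M-CSF and were left under basal conditions or given 20 ng/ml of IL-4. Egr2WT cells were Egr2 fl/fl. Egr2MKO cells were LyzM-Cre Egr2 fl/fl, in which Cre driven by the lysozyme M promoter deletes Egr2 in myeloid cells. Each genotype had 2 libraries under basal conditions and 2 at each of 1, 6 and 24 hours. A time course of C57BL/6J (C57) and SPRET/EiJ (SPRET) cells had the same layout, and basal and 24-hour cells of C57, SPRET, PWK/PhJ (PWK), BALB/cJ (BALB) and NOD/ShiLtJ (NOD) had 3 libraries a group except basal PWK with 2.

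IL-4 binds a receptor that activates the transcription factor STAT6, and macrophages that respond take up the state called alternative activation, with genes for lectins, chitinase-like proteins, chemokines and matrix enzymes. EGR2 is a zinc finger factor of the early growth response family, which binds GC-rich DNA. EGR genes are known as early response genes, transcribed soon after many stimuli.

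Depth ran from 4.69 to 32.9 M tags a library in the Egr2 table, from 5.70 to 24.0 M in the time course and from 7.02 to 22.5 M in the 5 strains. All 7 macrophage markers (Adgre1, Csf1r, Cd68, Itgam, Mertk, Fcgr1 and Lyz2) were present in each table, while the 4 B cell markers and 3 erythroid markers stayed under 1 TPM everywhere. Most of their sum was Lyz2, the gene whose promoter drives Cre, at 11662 to 22023 TPM in Egr2WT and 8044 to 16288 in Egr2MKO. The other 6 summed to 3746 to 4163 TPM in Egr2WT and to 4328 to 4812 in Egr2MKO, with Adgre1 at 563 to 749 against 904 to 1162 and Fcgr1 at 4.30 to 22.1 against 26.4 to 53.2. The summed neutrophil markers were 18.7 to 83.9 TPM in Egr2WT and 10.8 to 49.0 in Egr2MKO (Ly6g at most 0.105), those of dendritic cells 0.387 to 1.28 and 1.05 to 3.08, of T cells 0.634 to 1.31 and 1.31 to 3.09, of mast cells, basophils and eosinophils 1.76 to 3.30 and 1.53 to 5.93, and of fibroblasts 0.298 to 1.09 and 0.304 to 0.706. The part of these markers in the genotype results was not tested. Of the Egr2MKO libraries, 3 stood apart: replicate 1 at 1 hour and both replicates at 6 hours. Together 9 genes known from resident macrophages of the peritoneal cavity (Alox15, Prg4, Timd4, Selp, C4b, Cxcl13, Vsig4, F5 and Serpinb2, a list made after their values were seen) summed to 112, 49.7 and 280 TPM in these 3 libraries and to between 3.47 and 6.97 TPM in the other 13. The counts at 1 and 6 hours are given below with and without each of them, as are values of named genes whose call changed, and their part in the results was not tested.

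Promoter windows from RefSeq on GRCm38.p6, running from 250 bases before to 50 after each start, matched 62 of the 93 genes. The EGR consensus GCGTGGGCG stood on either strand in 2 of the 62 (3.23%), against 1.65% of the other induced genes and 0.707% of 27025 genes with a window. Its looser form GNGNGGGNG, which includes the consensus, stood in 62.9%, 57.9% and 41.9% of them. The paired half-sites TTC and GAA with any 4 bases between them, to which STAT6 can bind, stood in 14.5%, 13.2% and 8.01%. The median GC content was 58.6%, 57% and 52.75% in the 3 sets. These matches describe letters in a window and are not binding sites. Shown here are both windows with the EGR consensus (Plekhf1 and Bcl2a1d) and a window with the STAT6 pair from each of a late and an early surface receptor gene (Itgax and Clec7a). Capitals mark GCGTGGGCG or its reverse complement and the TTC and GAA pair with the bases between. The windows are chr7:38227945-38228244 on the minus strand for Plekhf1, chr9:88731801-88732100 on the minus strand for Bcl2a1d, chr7:128129300-128129599 on the plus strand for Itgax and chr6:129472730-129473029 on the minus strand for Clec7a, each written 5′ to 3′ along the gene.
Plekhf1: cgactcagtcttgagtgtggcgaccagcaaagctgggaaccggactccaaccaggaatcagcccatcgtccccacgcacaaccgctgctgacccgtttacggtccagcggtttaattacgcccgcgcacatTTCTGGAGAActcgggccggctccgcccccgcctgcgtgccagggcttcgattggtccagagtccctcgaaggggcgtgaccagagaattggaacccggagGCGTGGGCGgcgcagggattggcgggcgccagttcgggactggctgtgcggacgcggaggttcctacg
Bcl2a1d: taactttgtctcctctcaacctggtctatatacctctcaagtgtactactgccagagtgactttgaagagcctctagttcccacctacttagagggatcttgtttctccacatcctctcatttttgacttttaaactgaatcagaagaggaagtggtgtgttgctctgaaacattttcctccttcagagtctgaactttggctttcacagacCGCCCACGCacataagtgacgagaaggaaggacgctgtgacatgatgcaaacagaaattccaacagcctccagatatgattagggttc
Itgax: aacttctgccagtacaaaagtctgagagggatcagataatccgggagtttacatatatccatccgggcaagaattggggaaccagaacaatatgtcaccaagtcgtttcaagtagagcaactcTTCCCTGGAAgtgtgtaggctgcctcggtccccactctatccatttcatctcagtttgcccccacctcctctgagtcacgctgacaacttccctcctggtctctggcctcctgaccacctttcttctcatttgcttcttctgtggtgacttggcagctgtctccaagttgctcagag
Clec7a: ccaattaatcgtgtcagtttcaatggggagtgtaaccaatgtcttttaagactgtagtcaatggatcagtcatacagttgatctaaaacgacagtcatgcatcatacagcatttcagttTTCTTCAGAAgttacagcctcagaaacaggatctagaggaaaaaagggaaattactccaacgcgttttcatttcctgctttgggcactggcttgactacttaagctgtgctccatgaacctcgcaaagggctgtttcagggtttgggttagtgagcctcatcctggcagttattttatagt

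Egr2 itself met the rule (chromosome 10, 67537869 to 67542188 on mm10, the build of all gene positions below). In Egr2WT its 2 libraries held 23.6 and 21.3 TPM under basal conditions, 82.0 and 75.6 at 1 hour, 88.4 and 92.5 at 6 hours and 101 and 99.5 at 24 hours. In Egr2MKO it held 0.859 and 0.854, then 3.39 and 4.09, 3.10 and 5.23, and 4.72 and 7.05 TPM. All Egr2MKO libraries lay below all Egr2WT libraries, as the genotype labels say. TPM sums the exons, so which exon was lost is not resolved. The difference, Egr2MKO minus Egr2WT in log2(TPM + 1), was -4.08 at 1 hour and -4.18 at 6 hours (adjusted p = 5.3e-08 and 3.4e-08, limma). This loss follows from the deletion and is no result about the set, but Egr2 is included in the counts below. The remaining signal in Egr2MKO still rose by 1.35 at 1 hour and 1.44 at 6 hours on that scale (adjusted p = 0.00062 and 8.1e-05).

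The 24-hour values chose the genes and are given as a description. Egr2WT rose by a median of 1.74 (1.02 to 5.25), and Egr2MKO at 24 hours was lower by a median of 1.82 (range -4.49 to -1.02). The TPM left in Egr2MKO at 24 hours had a median of 20.7% of the Egr2WT level, with 0% for the lowest gene and 70.1% for the highest. Rbp4, a retinol carrier (chromosome 19, 38116620 to 38124811), had the deepest fall. It held 44.8 and 40.2 TPM in Egr2WT and 0.887 and 0.994 in Egr2MKO at 24 hours, and no library of either genotype reached 0.5 TPM at the earlier times. Itgax, the integrin alpha chain CD11c (chromosome 7, 128129568 to 128150657), followed with 159 and 164 TPM against 6.83 and 7.25. The remaining 10 of the 12 deepest falls were Egr2, Eef1a2 (a translation elongation factor), Myrf (a membrane-bound transcription factor), Bex1, Chil3 (the chitinase-like protein Ym1), Galnt9 (a glycosyltransferase), Ocstamp (a protein of cell fusion), Tuba8 (a tubulin), Lat (a membrane adaptor) and Lrrc32 (which holds latent TGF-beta on the surface). In a bulk sample, fewer cells of a type and less RNA per cell cannot be told apart.

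**Figure D1:**
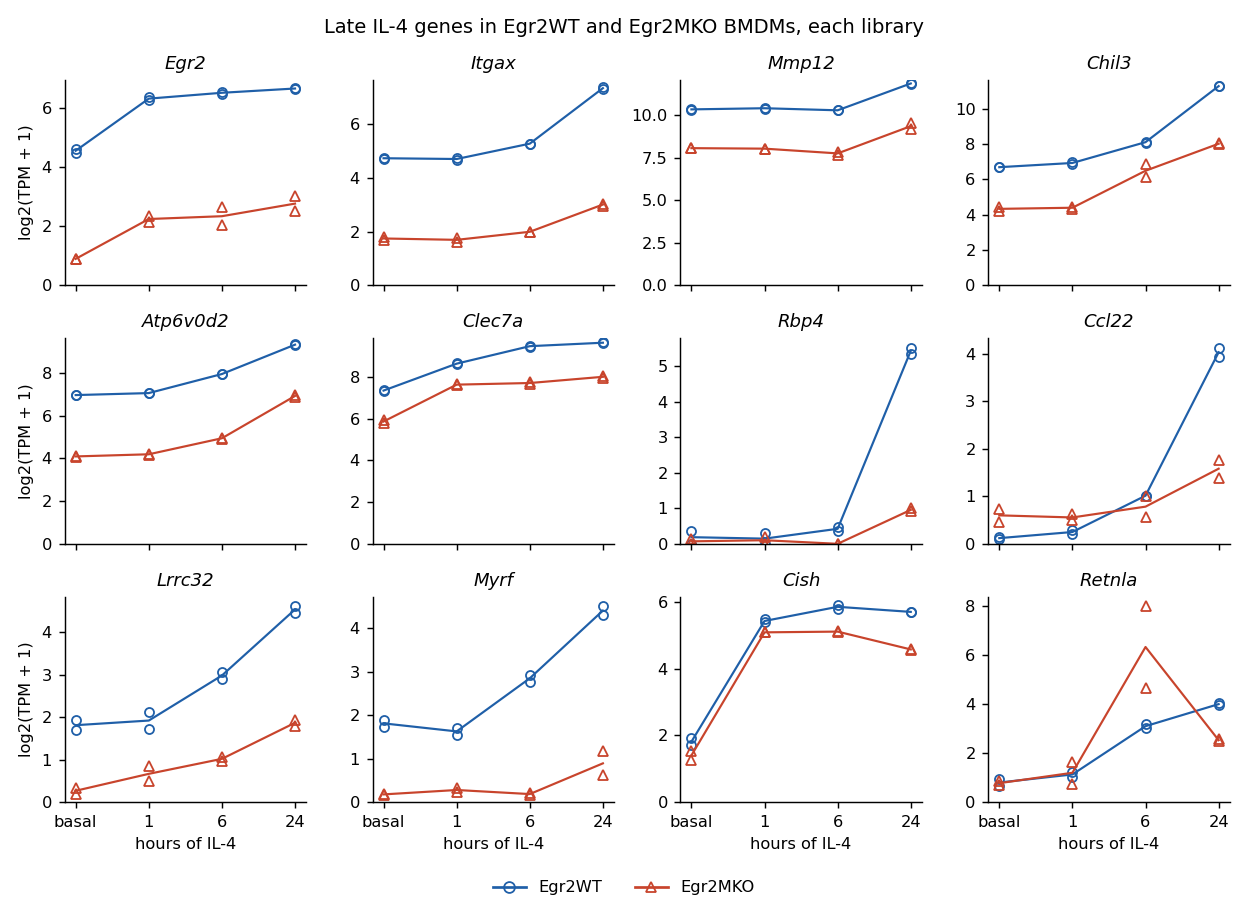
Levels of 12 EGR2-dependent genes in log2(TPM + 1) (y axes) against hours of IL-4 (x axes), with a point for each library, lines through the group means, Egr2WT as blue circles and Egr2MKO as red triangles. Rbp4 and Ccl22 separate at 24 hours, while Itgax, Mmp12 and Atp6v0d2 are apart under basal conditions and stay so.

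Genes close to the limits of the rule show where it divides. The smallest rises inside were 1.02 for Sulf2 and Tmem202 and 1.03 for Ss18l2, and just outside lay Tnfrsf12a (0.99), Serpinb9b (0.98) and Dusp2 (0.96). The smallest falls inside were -1.02 for Cd300ld, -1.03 for Lama4 and -1.06 for Ptrf, with Gm19689 (-0.997), Rwdd1 (-0.991) and Ablim1 (-0.952) outside. For the level, Mir7084, Snora16a and Dact2 were inside at 2.02, 2.07 and 2.14 TPM in their lower library, and Mir6931, Hebp2 and Mir421 were outside at 1.91, 1.91 and 1.86 TPM.

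Part of the 93 was already low without EGR2 before IL-4 was given. Under basal conditions the difference between Egr2MKO and Egr2WT had a median of -0.51, and 23 genes were below -1 (24.7%, against 1 of the other 181 and 0.836% of genes tested, with no test, as the Egr2WT basal libraries entered the rule). They include Itgax, Mmp12, Atp6v0d2, Chil3, Itgb3, Cyp1b1, Clec7a, Myrf, Ccr1 and Olr1. In Itgax the basal libraries held 25.4 and 25.8 TPM in Egr2WT and 2.45 and 2.25 in Egr2MKO. From basal to 24 hours, Atp6v0d2 rose by 2.36 in Egr2WT and 2.83 in Egr2MKO, and Cyp1b1 by 2.56 and 2.43. In the same order, Itgb3 rose by 1.87 and 1.69, Clec7a by 2.29 and 2.14, and Mmp12 by 1.52 and 1.29. Chil3 rose by 4.59 and 3.69, and Itgax by 2.61 and 1.26. The rises were 2.59 and 0.71 for Myrf, 1.18 and 0.74 for Ccr1, and 1.68 and 0.33 for Olr1. At 24 hours after IL-4, Egr2MKO had risen over its own basal level by more than 1 in 26 of the 93 (28%), against 145 of the other 181 and 3.11% of genes tested, with median rises of 0.59, 1.67 and 0.05. The rule divided the 93 from the 181 by the Egr2MKO level at 24 hours. These rises are thus a description with no test, and the contrast with the 181 is no support.

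The libraries at 1 and 6 hours were not used by the rule, and the genotype difference was tested there. At 6 hours 44 of the 93 were lower in Egr2MKO (47.3%), beside a background of 1.41% of 12079 genes tested and 4 of the other 181 induced genes. A gene was called at adjusted p under 0.05 and more than 2-fold on log2(TPM + 1), by limma with Benjamini-Hochberg adjustment over all genes tested. The median difference was -0.99 in the 93, -0.08 in the other 181 and 0.02 in all genes. Only 1 of the 93, Retnla, was higher (background 0.894%). At 1 hour 27 were lower (background 0.58%, and 2 of the 181), with medians of -0.64, -0.01 and 0.01. None of the 93 was called higher at 1 hour by limma (background 0.48%), and none of them was higher with an unadjusted p under 0.05. Of the genes lower at 1 hour, 26 were also lower at 6 hours, and the 1 that was not is Cited4, a transcriptional coactivator (difference -1.11 at 1 hour and -0.91 at 6 hours, adjusted p = 0.0042 and 0.0090). Its call at 1 hour was lost without Egr2WT replicate 2 (-0.94, adjusted p = 0.057) and with a pseudocount of 5 TPM (-0.32), and it was called at 6 hours without Egr2WT replicate 1 (-1.12). The sign was negative in 84 of 93 genes at each time. All 23 genes with a basal difference below -1 were lower at 6 hours, as were 21 of the other 70.

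**Figure D2:**
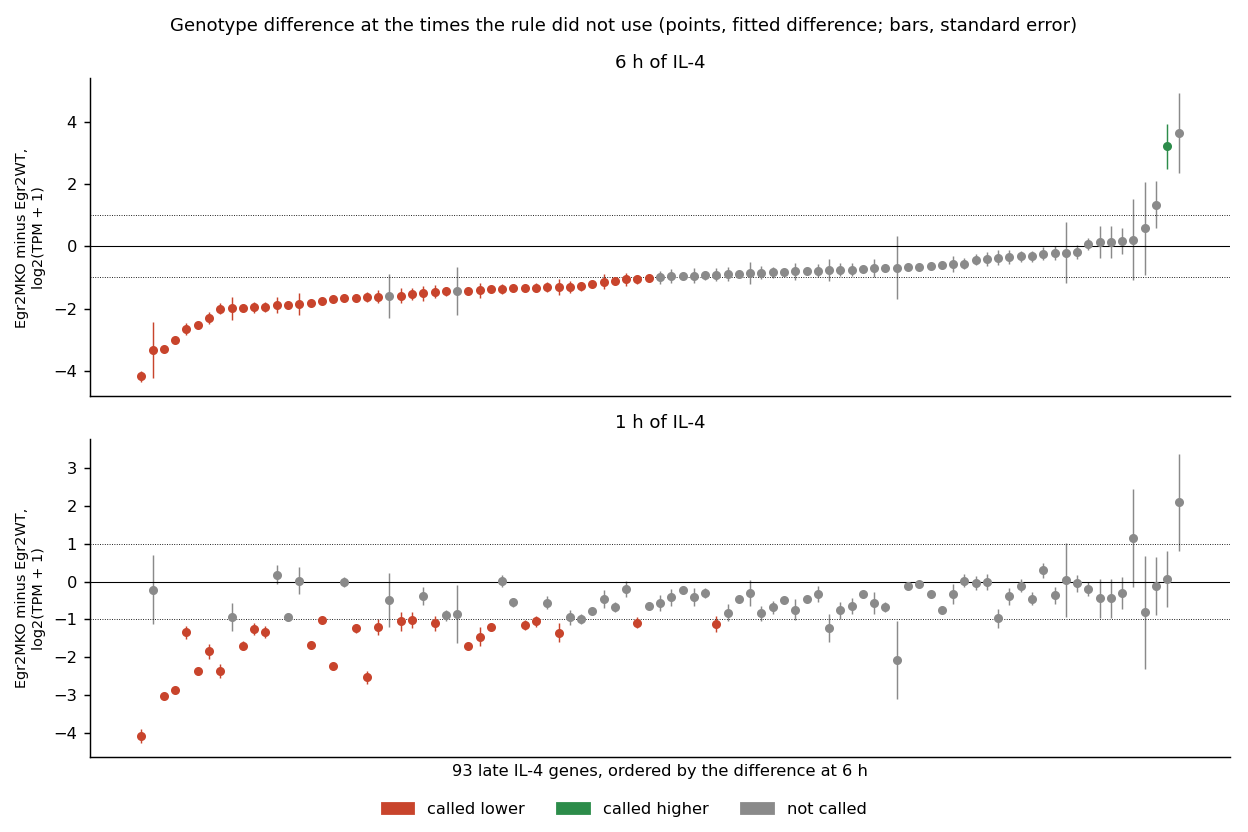
Egr2MKO minus Egr2WT difference in log2(TPM + 1) (y axes) for each of the 93 genes, ordered along the x axis by the 6-hour value, at 6 hours (top) and 1 hour (bottom), with bars for the standard error and colours for called lower, called higher and not called. The 44 genes called lower at 6 hours (red) lie in the left part of the top panel, among 2 not called (grey), Retnla is the 1 called higher (green), and 27 are called lower in the bottom panel.

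The Egr2MKO libraries at 6 hours were among those that stood apart. The count at 6 hours was 47 without Egr2MKO replicate 1 and 42 without replicate 2. At 1 hour the count was 24 without replicate 1 and 27 without replicate 2. A pseudocount of 5 TPM lowered the counts at both times by more than leaving out any single library did, with the values given in the last section. In 10 of the 93, including Rbp4, Ocstamp, Bcat1 and Ear2, the filter on low values was passed through the Egr2WT 24-hour libraries alone.

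Receptors and surface proteins formed the group with the most genes called lower at these times. In Egr2MKO 15 of 21 were lower at 6 hours and 10 at 1 hour (background of all genes 1.41% and 0.58%). No share over all genes of the same role is available, so the counts by role here and below are a description. Under basal conditions Itgax and Itgb3 already differed by -2.99 and -1.70 and Cdh1 by -0.38, with no test. In Itgax the Egr2WT libraries held 37.9 and 37.6 TPM at 6 hours and those of Egr2MKO 2.98 and 2.98. The difference was -3.28 ± 0.07 (SE of the fit over all 16 libraries, n = 2 libraries a group, adjusted p = 4.8e-11). Clec7a, the beta-glucan receptor Dectin-1, held 715 and 698 TPM against 216 and 199, a difference of -1.76 ± 0.05. Its libraries did not overlap between the genotypes at 1 or 6 hours, and at 1 hour the difference was -1.01 ± 0.05, at the 2-fold limit. That call was lost without Egr2MKO replicate 1 (-0.968), without Egr2WT replicate 1 (-0.985) and with a pseudocount of 5 TPM (-0.991). Itgb3, the integrin beta 3 chain, differed by -1.42 at 6 hours, Lrrc32 by -1.96, Lat by -1.46 and Scimp, a transmembrane adaptor, by -1.89. Scimp at 1 hour showed no such gap (0.19, adjusted p = 0.75). Cdh1, the adhesion protein E-cadherin, held 8.37 and 8.27 TPM in Egr2WT and 4.72 and 2.50 in Egr2MKO at 6 hours (-1.06, adjusted p = 0.0042), and without Egr2MKO replicate 2 the difference of -0.70 was no longer called. Ocstamp and Dcstamp, both proteins of macrophage fusion, were not called at 6 hours (-0.17 and -0.89, adjusted p = 0.64 and 0.016), but Dcstamp was called lower without Egr2MKO replicate 1 (-1.15) or without Egr2WT replicate 1 (-1.08). Ocstamp held at most 0.269 TPM in any library before 24 hours, and 8.09 and 8.66 TPM in Egr2WT at 24 hours.

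Signalling, cytoskeletal and survival proteins came next with 13 of 21 lower at 6 hours and 6 at 1 hour. Eef1a2 differed by -2.001 and Bex1 by -2.31 at 6 hours. Bex1 held 3.65 and 4.28 TPM in Egr2WT and was listed at 0 in both Egr2MKO libraries at 6 hours, so the fitted value depends on the pseudocount of 1 TPM. Tuba8, whose Egr2WT level was 0.092 and 0.283 TPM at 1 hour and 1.61 and 1.51 at 6 hours, was listed at 0 in Egr2MKO at 6 hours (-1.36, adjusted p = 9.8e-05). Matk, a tyrosine kinase, differed by -1.06, which fell to -0.97 and was not called without Egr2MKO replicate 1. AA467197 differed by -1.34. Bcl2a1d, of the BCL2 family that blocks cell death, differed by -1.84 at 6 hours and 0.02 at 1 hour, and Plekhf1, a protein of endosomes, by -1.67 and -0.01. These are the 2 genes whose windows above hold the EGR consensus. Bcl2a1d has close copies in the genome, so its level is uncertain. Cish, an inhibitor of cytokine signalling, was not called at 6 hours (-0.74), with 53.9 and 59.1 TPM against 33.7 and 33.0.

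Enzymes, transporters and metabolic proteins had 7 of 15 lower at 6 hours and 6 at 1 hour. Atp6v0d2, a subunit of the proton pump of lysosomes and osteoclasts, held 251 and 244 TPM in Egr2WT and 30.4 and 29.3 in Egr2MKO at 6 hours. The difference was -3.01 ± 0.05 at 6 hours and -2.87 ± 0.05 at 1 hour. Cyp1b1, a cytochrome P450, differed by -1.70 at 6 hours and -2.23 at 1 hour. Galnt9 (-1.30) and Ak8, an adenylate kinase (-1.14), were also lower at 6 hours. Ak8 was not called without Egr2MKO replicate 2 or without Egr2WT replicate 2 (-0.90 and -0.78). Gsta2, a glutathione transferase with near-identical family members, had 1.24 and 0.436 TPM in Egr2WT at 6 hours and was not called (-0.70, adjusted p = 0.11).

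Among transcription factors and chromatin proteins, 4 of 7 were lower at 6 hours and 3 at 1 hour. Besides Egr2, Myrf fell by 2.66 on the log2(TPM + 1) scale, and its 2 Egr2MKO libraries held 0.131 and 0.152 TPM against 5.79 and 6.62. Irf4, a factor of alternative activation, held 28.0 and 30.1 TPM against 10.2 and 11.4 (-1.35, adjusted p = 1.5e-05), and Bhlhe40, a repressor of the basic helix-loop-helix class, differed by -1.21. Irf4 and Bhlhe40 were thus present without EGR2 at a reduced level, and Myrf was close to 0. Dnmt3a, a DNA methyltransferase, held 49.9 and 55.3 TPM against 27.9 and 30.6, a difference of -0.82 that was not called.

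Cytokines, chemokines and other secreted proteins had the fewest calls of the protein groups: 3 of 18 were lower at 6 hours, 1 was higher and 2 were lower at 1 hour. Mmp12, the macrophage elastase (chromosome 9, 7347374 to 7360461), had the highest level of all 93 at 24 hours, with 3697 and 3741 TPM in Egr2WT and 584 and 729 in Egr2MKO. At 6 hours it differed by -2.53 and at 1 hour by -2.38. Chil3 held 280 and 267 TPM against 68.0 and 115 at 6 hours (-1.62) and 124 and 117 against 20.7 and 19.2 at 1 hour (-2.53). Ccl6, a chemokine among the 8 genes of highest level, held 130 and 133 TPM against 77.6 and 87.2 at 6 hours, under the 2-fold limit (-0.67), as did the surface receptor gene Cd300ld (-0.80). Csf1, the growth factor of macrophages, held 43.3 and 45.0 against 12.9 and 9.98 TPM at 6 hours (-1.87). Rbp4 (-0.42, adjusted p = 0.14) and the chemokine Ccl22 (-0.23, adjusted p = 0.46) were near 0 or 1 TPM in both genotypes at 6 hours. Retnla, the secreted protein RELM-alpha, stood in the opposite direction to its 24-hour value. It held 7.08 and 8.10 TPM in Egr2WT and 24.1 and 254 in Egr2MKO at 6 hours (3.22, adjusted p = 0.0087), in the same libraries as the 9 genes given above. Fn1, fibronectin, held 28.8 and 160 TPM against 4.82 and 4.24 (3.65, adjusted p = 0.066), and was called higher without Egr2MKO replicate 1 (4.87, adjusted p = 0.036) and with a pseudocount of 5 TPM (2.97). At 24 hours, with no such libraries, Retnla held 14.6 and 15.3 TPM in Egr2WT and 4.60 and 4.95 in Egr2MKO.

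The RNA genes were 11, of which 2 were lower at 6 hours and none at 1 hour by limma, where 3 were lower at an unadjusted p under 0.05. Of these, 9 are short RNAs inside host genes, and a poly(A) library is not made for them. Mir6914, inside Ankrd52, held 23.1 and 48.8 TPM in Egr2WT and 10.8 and 0 in Egr2MKO at 6 hours (-3.34, adjusted p = 0.022). It was not called without Egr2WT replicate 2 (-2.81) or without Egr2MKO replicate 2 (-1.56). Leaving out the 9 short RNAs, 43 of 84 genes were lower at 6 hours. Dnmt3aos, antisense to Dnmt3a, differed by -1.996, and reads of the 2 cannot be told apart without the strand used in counting. The same holds for Bhlhe40 and 0610040F04Rik, Il11ra1 and Ccl27a, and Plk3 and Tctex1d4. Ear12 and Ear3 had identical values in all libraries and overlap Ear2. Ear12 and Ear3 are thus 1 measurement, though each is counted as a gene in all counts given here.

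Part of the set rose after IL-4 in cells without EGR2. At 6 hours 15 of 93 were higher in Egr2MKO than under basal conditions (background 2.37%), against 112 of the other 181 induced genes, and the median rise was 0.17 against 1.30. The 15 were Egr2, Chil3, Fn1, AA467197, Cyp1b1, Ksr2, Mir147, Clec7a, Bhlhe40, Retnla, Cdh1, Irf4, Rras2, Cish and Mcf2l, and 9 of them were also lower than in Egr2WT at 6 hours. At 1 hour 6 were higher (background 0.687%, and 30 of the 181): Egr2, Clec7a, Irf4, Ptgs2, Plekhf1 and Cish. Cish held 1.42 and 1.89 TPM in basal Egr2MKO and 32.8 and 32.9 at 1 hour, a rise of 3.68. Clec7a rose by 1.77 at 1 hour and 1.84 at 6 hours, from 59.6 and 54.5 TPM to 216 and 199. Irf4 rose by 1.93 and 2.58. At 6 hours Cish, Clec7a and Irf4 lay below their Egr2WT libraries, while Retnla and Fn1 lay above theirs, and at 1 hour the Plekhf1 libraries of the genotypes overlapped. Without Egr2MKO 6-hour replicate 1 the count at 6 hours was 20 and without replicate 2 it was 14, and without 1-hour replicate 1 the count at 1 hour was 5. Fn1 at 6 hours (4.63) and Ptgs2 at 1 hour (1.11) were not called when some single libraries were left out.

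In Egr2WT, 14 of 93 were higher at 6 hours than at 1 hour (background 1.23%), against 77 of the other 181. They were Myrf, Chil3, Tuba8, Lrrc32, AA467197, Ksr2, Matk, Csf1, Bhlhe40, Cdh1, Scimp, Irf4, Rgcc and Mcf2l. The median rise between these times was 0.46 in the 93 and 0.89 in the 181.

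The C57 time course held other libraries of the same treatment, and 87 of the 93 were tested there. At 1, 6 and 24 hours 10, 24 and 64 were higher than under basal conditions (background 0.703%, 1.56% and 2.85%). Of the 175 other induced genes tested, 32, 106 and 111 were higher at these times. The median rise of the 87 was 0.03, 0.48 and 1.57, and that of the 175 was 0.29, 1.19 and 1.34. Between 6 and 24 hours 35 of 87 rose further (background 1.57%), against 17 of 175, with medians of 0.84 and 0.10. The 24-hour value of 7 of the 87, Rbp4, Ear12, Ear3, Ffar4, Ear2, Bcat1 and Bok, came with a pass of the filter through 24-hour libraries alone. These 7 are included in the 87 and were not left out of the counts. The label late therefore describes the set by its median, while 10 genes had responded within 1 hour.

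**Figure D3:**
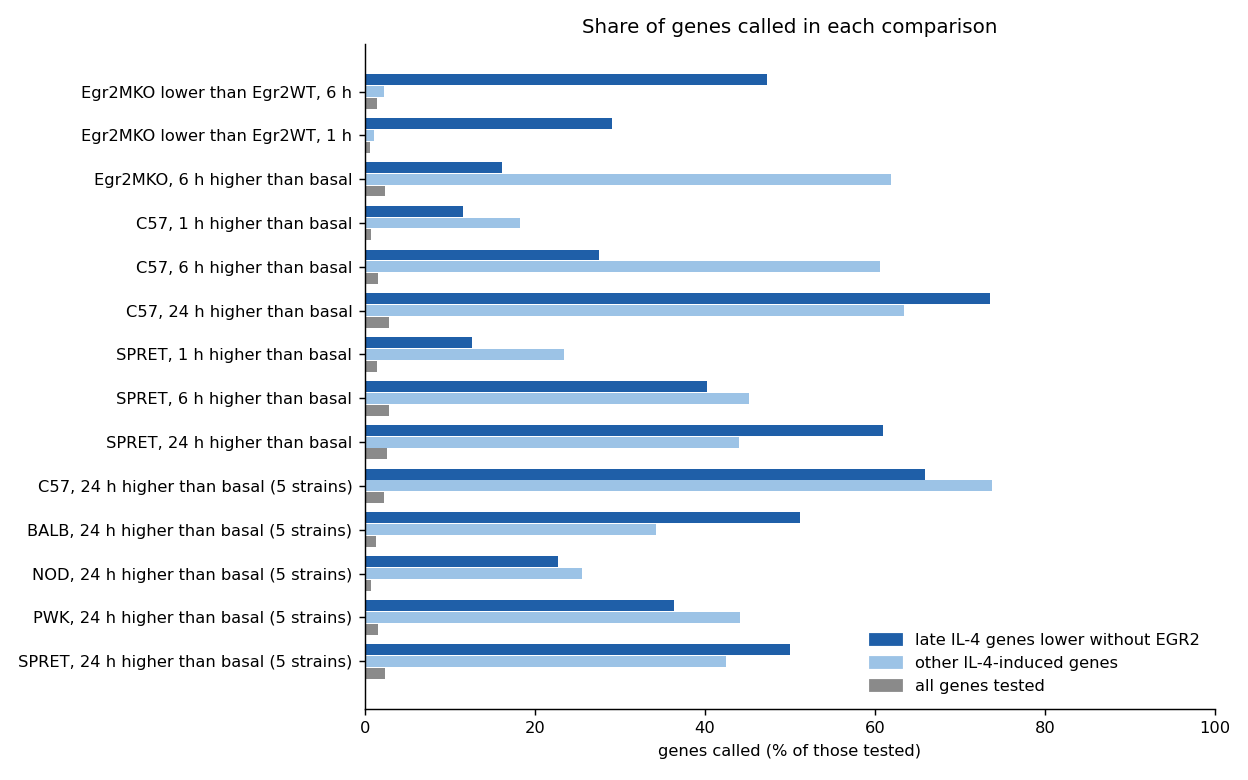
Share of genes called in each comparison (x axis, percent) for the 93 EGR2-dependent genes, the other induced genes and all genes tested. The EGR2-dependent genes reach 47.3% for lower in Egr2MKO at 6 hours, where all genes are at 1.41%.

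The genes that had responded within 1 hour in C57 were Egr2, Olr1, Plk3, Clec7a, Cdh1, Scimp, Irf4, Ptgs2, Plekhf1 and Cish. A further 14 were first called at 6 hours and 40 at 24 hours, and 23 were called at none of these times. Cish rose from 1.86 and 1.64 TPM to 42.9 and 40.6 at 1 hour (3.96 ± 0.07) and then stayed between 47.3 and 51.9. Egr2 rose from 63.2 and 64.9 TPM to 197 and 200 at 1 hour and was at 157 and 166 at 24 hours. Rbp4 showed the opposite course, with at most 0.619 TPM up to 6 hours and 37.0 and 28.7 TPM at 24 hours. Its rise, 4.96 over basal and 4.60 over 6 hours, is a description, as the filter was passed only through 24-hour libraries. Chil3 held 101 and 87.0 TPM under basal conditions, 276 and 292 at 6 hours and 2034 and 2022 at 24 hours (4.42). Gsta2 rose by 3.76, Car2 (carbonic anhydrase 2) by 4.15 and Ccl22 by 3.01 at 24 hours. Of the 24 genes called at 6 hours in C57, 17 were lower in Egr2MKO at 6 hours, beside 44 of all 93 and 1.41% of all genes tested. The same count was not made for the other induced genes, so it is a description. Retnla did not rise in this C57 series, with 2.95 and 2.95 TPM under basal conditions and 2.81 and 3.13 at 24 hours (0.01, adjusted p = 1.0).

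In SPRET 11, 35 and 53 of the 87 were higher at 1, 6 and 24 hours (background 1.41%, 2.81% and 2.62%), and 41, 79 and 77 of the 175. The medians of the 87 were 0.02, 0.60 and 1.46. Between 6 and 24 hours 21 rose further (background 0.695%), against 4 of 175. Egr2 started at 13.8 and 15.8 TPM, below all C57 libraries, and reached 160 and 149 TPM at 24 hours (3.30), so that the strains overlapped at 24 hours and were apart before IL-4.

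**Figure D4:**
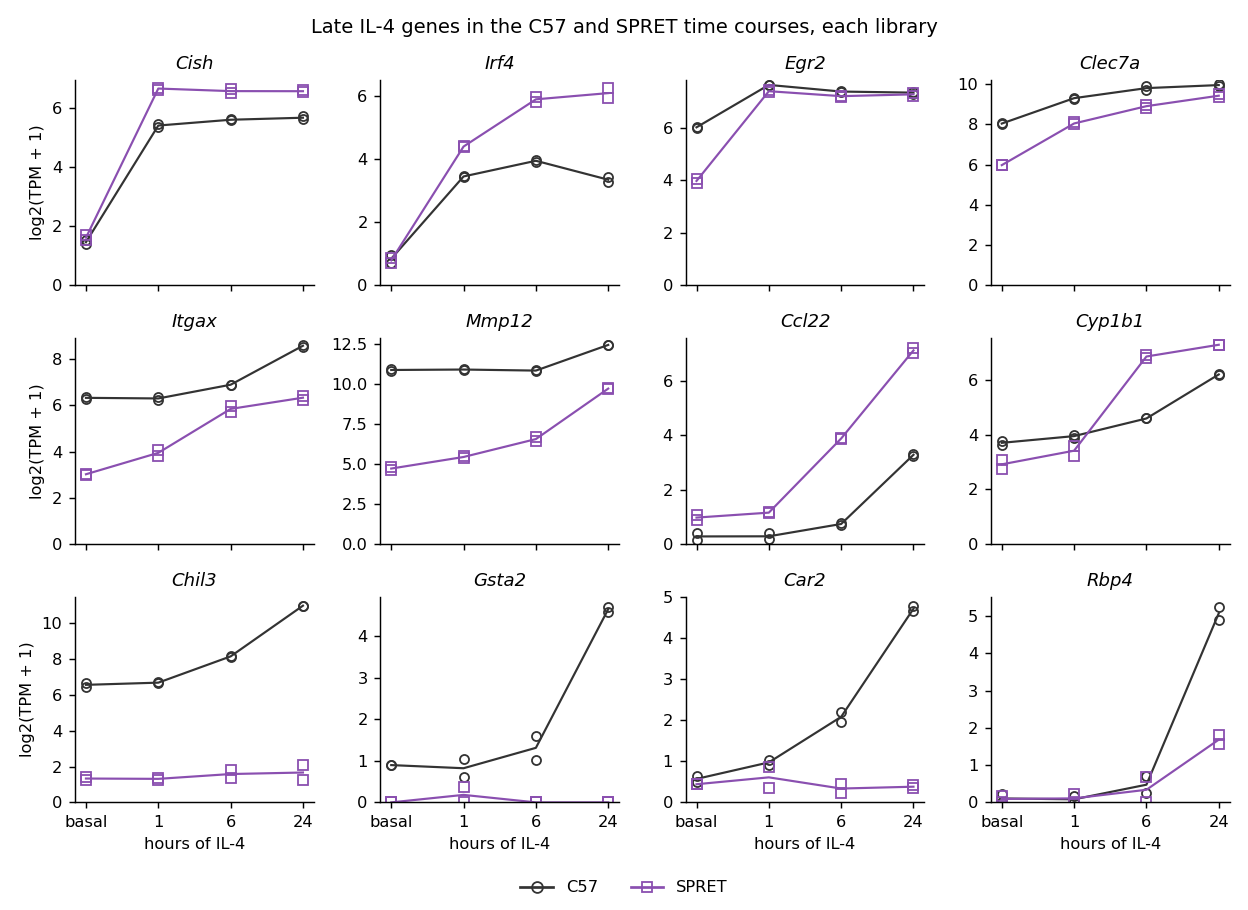
Levels of 12 EGR2-dependent genes in log2(TPM + 1) (y axes) against hours of IL-4 (x axes) in C57 (circles) and SPRET (squares), with a point for each library and lines through the means. Cish, Irf4 and Egr2 rise within 1 hour, Rbp4 and Gsta2 rise in C57 at 24 hours, and Chil3, Gsta2 and Car2 stay low in SPRET.

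The 24-hour response of C57 and SPRET was compared directly with an interaction contrast. It was smaller in SPRET for 18 of 87 genes (background 3.14%) and larger for 17 (background 3.09%). Of the 175 other induced genes, 45 had a smaller and 16 a larger response. Chil3 ranged from 1.40 to 3.22 TPM over all SPRET libraries and its response differed by -4.08 ± 0.29. Car2 differed by -4.21 and Rbp4 by -3.37, the latter rising to 2.48 and 1.96 TPM in SPRET. Gsta2 was listed at 0 in 7 of 8 SPRET libraries (-3.76). Ptgs2, the cyclooxygenase COX-2, rose within 1 hour in C57 to 16.1 and 16.5 TPM and stayed under 1 TPM in SPRET (-2.60). In the other direction, Mmp12 rose in SPRET from 27.4 and 23.2 to 865 and 824 TPM, from a far lower basal level than the 1978 and 1816 TPM of C57 (3.44). Ccl22 reached 148 and 130 TPM in SPRET against 8.48 and 8.94 in C57 (3.15), and Irf4 74.3 and 60.4 against 9.75 and 8.58 (2.80). Retnla, listed at 0 in basal SPRET, reached 7.30 and 3.60 TPM (2.62), and Ear2, an eosinophil-associated ribonuclease that was also listed at 0, reached 7.54 and 7.59 (2.99). Egr2 differed by 1.98. Rbp4 and Ear2 passed the filter on low values only through 24-hour libraries, so their values are a description. The SPRET cells also held 8.87 to 20.2 TPM of Mcpt8, a basophil protease, against at most 0.213 in C57, and the summed markers of mast cells, basophils and eosinophils were 10.7 to 21.9 against 0.39 to 1.03 TPM. Their part in these results was not tested.

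In the 5 strains 88 of the 93 were tested after 24 hours of IL-4. The genes called higher were 58 for C57, 45 for BALB, 20 for NOD, 32 for PWK and 44 for SPRET (background 2.28%, 1.27%, 0.731%, 1.54% and 2.32%). Of 172 other induced genes the counts were 127, 59, 44, 76 and 73. The median response of the 88 was 1.43, 1.02, 0.47, 0.59 and 1.04, and that of the 172 was 1.43, 0.73, 0.57, 0.93 and 0.84. NOD thus had the fewest calls and the lowest median, and it was the strain of smallest response for 39 of the 88, while C57 was so for 1. The largest response was in SPRET for 35 genes, in C57 for 31, in BALB for 12, in PWK for 8 and in NOD for 2. Such counts of smallest and largest response were not made for the 172 or for all genes, so they are a description. The 172 also had their fewest calls and lowest median in NOD, so this order is not particular to the 88. Scaling libraries by their median ratio in place of TPM moved the median of all genes by -0.11 in BALB, 0.14 in NOD and 0.11 in SPRET, and NOD then had 11 of 88 called. Of 63 genes called at 24 hours in the C57 time course and tested here, 51 were called in the C57 libraries of this experiment. The filter was passed through 24-hour libraries alone in 14 of the 88 (Rbp4, Ocstamp, Awat1, Olr1, Ear12, Ear3, Rtn4rl2, Ksr2, Ear2, Bcat1, Bok, Slc9a3r2, Srpx2 and Lama4), whose responses are for that reason no independent support. These 14 are included in the 88 and were not left out of the counts.

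**Figure D5:**
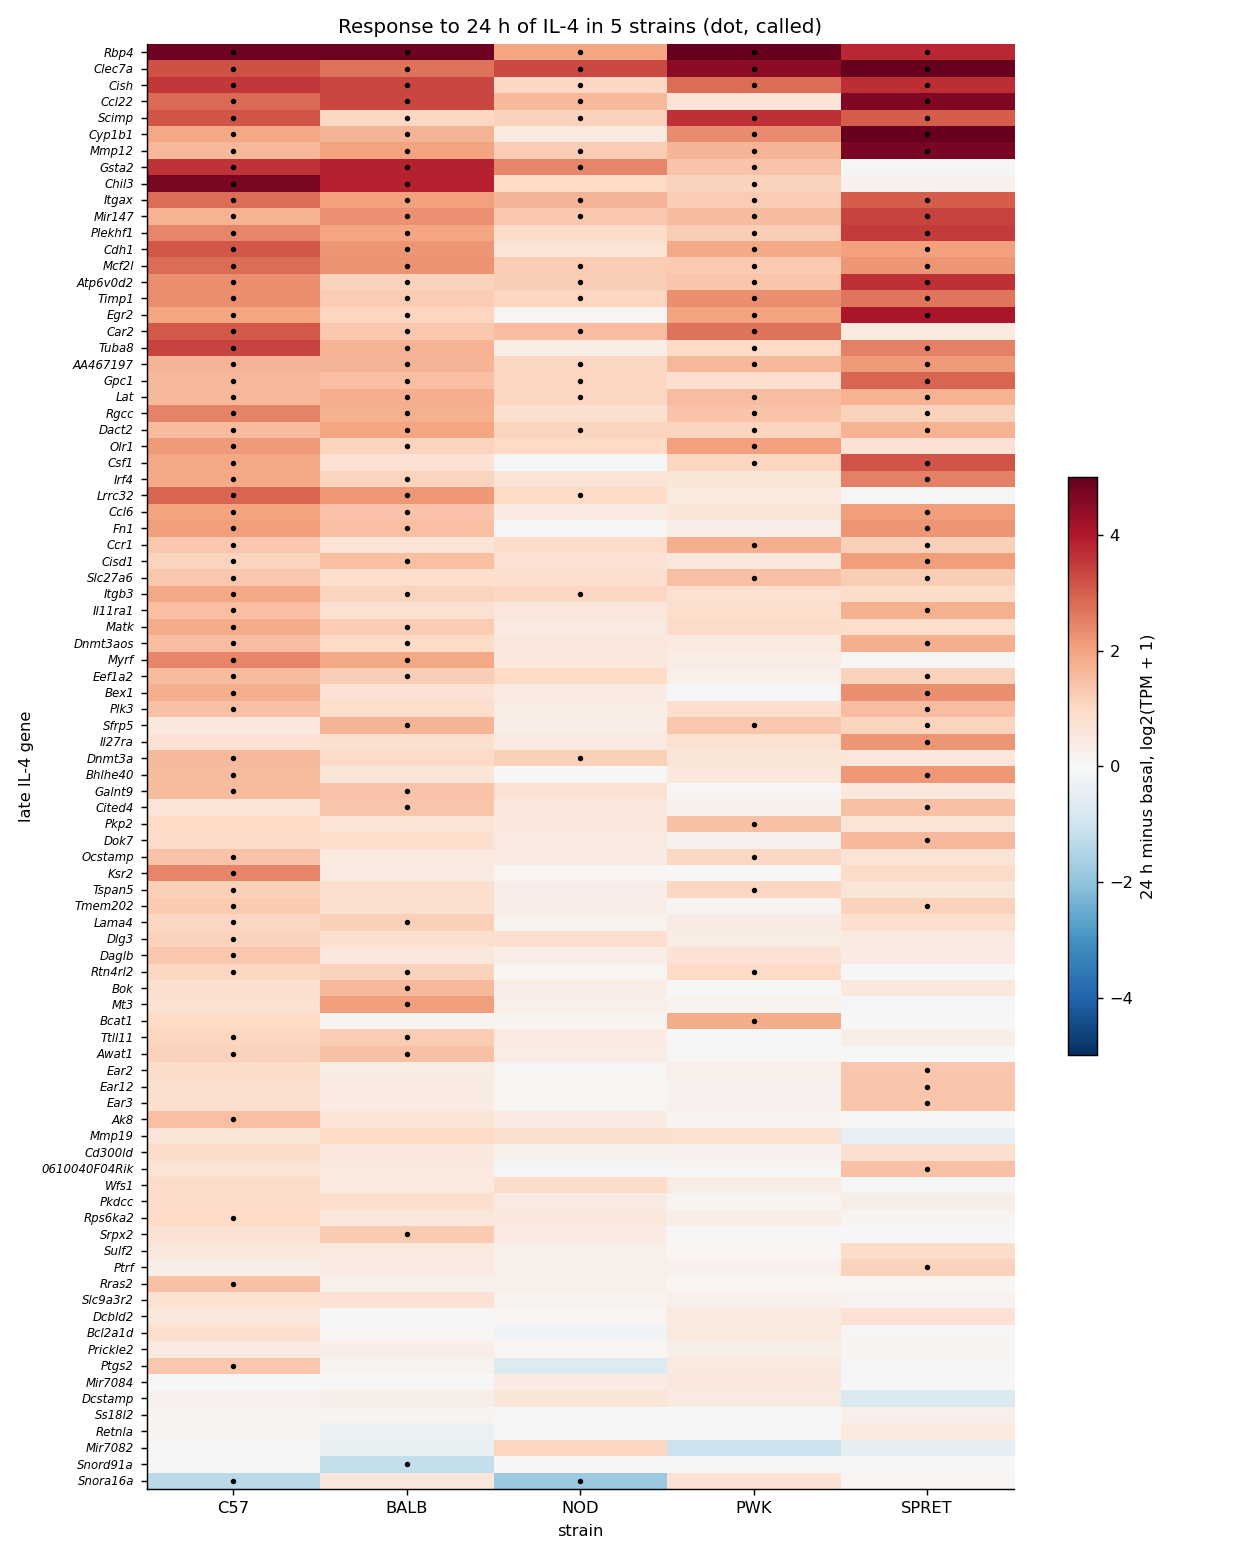
Response to 24 hours of IL-4, as the difference of log2(TPM + 1) from basal (colour, ending at 5 in either direction), for 88 EGR2-dependent genes (rows) in 5 strains (columns), with a dot where the change was called. Clec7a and Itgax are called in all strains, Chil3 is strong in C57 and BALB and near 0 in SPRET, and NOD has the fewest dots. Rbp4 also has a dot in all strains but passed the filter only through 24-hour libraries, so its dots are a description.

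Genes higher after IL-4 in all 5 strains were 13: Rbp4, Itgax, Lat, Mmp12, Atp6v0d2, AA467197, Mir147, Clec7a, Dact2, Scimp, Cish, Mcf2l and Timp1. Mir147 lies in AA467197 and is not a separate measurement, though it is counted in the 13. Rbp4 passed the filter only through 24-hour libraries, so its response is a description. With median-ratio scaling 8 of the 13 were called in all strains, and the 5 lost were AA467197, Cish, Dact2, Lat and Timp1. The pseudocount moved this count further, to 24 with 0.1 TPM and to 5 with 5 TPM, the latter without Rbp4, Scimp and Mcf2l as well. Clec7a rose by 3.17 ± 0.06 in C57, 3.30 in NOD, 2.71 in BALB, 4.48 in PWK and 5.19 in SPRET. Its basal libraries held 75.7 to 79.8 TPM in C57 and 12.6 to 14.6 in PWK, and its 24-hour libraries 636 to 745 in C57 and 319 to 331 in PWK. In NOD, Rbp4 reached 3.34 to 3.53 TPM, where C57 reached 28.8 to 32.3, BALB 57.1 to 64.2 and PWK 50.0 to 63.5. Of the 88, 16 were called in no strain, and 19, 15, 15 and 10 were called in 1, 2, 3 and 4 strains. The same counts were not made for the other induced genes or for all genes, so these and the 13 are a description.

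The strain libraries did not enter the rule, so Egr2 was tested there like the other genes. It rose by 1.97 ± 0.09 in C57, 1.08 in BALB, 2.01 in PWK and 4.09 in SPRET, and by 0.08 in NOD (adjusted p = 0.50), where median-ratio and quantile scaling turned the sign (-0.10 and -0.02). In NOD the basal libraries held 24.8 to 31.7 TPM and the 24-hour libraries 26.8 to 30.4, so the groups overlapped. Basal C57 held 12.5 to 14.4, basal PWK 3.37 and 3.44 and basal SPRET 1.87 to 2.20 TPM. After 24 hours C57 held 48.7 to 62.0, SPRET 50.0 to 50.9, BALB 35.5 to 40.5 and PWK 15.0 to 18.0 TPM. The 24-hour levels of C57 and SPRET overlapped, while those of BALB, NOD and PWK were below and apart from each other.

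Each strain's response was compared with that of C57, and the 4 comparisons share the C57 libraries. Smaller responses were called for 12 genes of BALB, 34 of NOD, 27 of PWK and 19 of SPRET (background 0.857%, 1.43%, 0.999% and 1.62%). Of the 172 other induced genes, 45, 69, 31 and 48 had smaller responses. These were larger shares than in the 88, except in PWK. Larger ones were called for 2, 0, 2 and 11 (background 0.63%, 1.04%, 1.26% and 1.83%), and for 1, 1, 7 and 17 of the 172. In NOD no gene had a larger response in limma, also at an unadjusted p under 0.05. With median-ratio scaling, which moved the median of all genes by 0.19, 0.14 and 0.16 in NOD, PWK and SPRET, the counts of smaller and larger responses were 9 and 3 for BALB, 39 and 0 for NOD, 30 and 2 for PWK and 23 and 9 for SPRET.

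Chil3 had the strongest loss of response outside C57 and BALB. Its 24-hour libraries held 1667 to 1855 TPM in C57, 172 to 199 for BALB, 5.76 to 7.91 for NOD, 2.96 to 7.24 for PWK and 0.493 to 0.712 for SPRET. The response against that of C57 was -3.73 for NOD, -3.57 for PWK and -4.51 for SPRET. The level before IL-4 was also highest in C57, at 61.3 to 71.2 TPM against at most 3.10 in those 3 strains. Chil3 has close copies, so a level near 0 in a distant strain is uncertain.

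In NOD, Tuba8 (-3.01) and Rbp4 (-2.90) followed Chil3, and the response of Egr2 was smaller by 1.88. The largest values in the other direction, none of them called, were 0.99 for Mir7082 and 0.40 for Dcstamp and Mir7084. In BALB, Scimp (-2.10), Ksr2, a scaffold of kinase signalling (-1.99), and Car2 (-1.74) had the smallest responses, and Snora16a (1.93), Mt3, a metallothionein (1.32, not called), and Sfrp5, an inhibitor of Wnt signalling (1.19), the largest. In PWK, Ksr2 (-2.42) and Lrrc32 (-2.41) followed Chil3, and Snora16a (2.08), Clec7a (1.30) and Bcat1, an aminotransferase (0.87, not called), had the largest. Ksr2, which like Rbp4 and Bcat1 passed the filter only through 24-hour libraries, held 4.47 to 4.70 TPM in C57 at 24 hours and at most 0.46 in BALB and 0.01 in PWK. Snora16a, a short RNA inside Snhg12, was listed at 0 in the C57 24-hour libraries and lost its call in several alternatives.

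The 11 genes with a larger response in SPRET than in C57 were Egr2, Mmp12, Ccl22, Atp6v0d2, Cyp1b1, Gpc1, Mir147, Il27ra, Clec7a, Csf1 and Plekhf1. Mmp12 rose from 2.84 to 4.46 TPM under basal conditions to 112 to 120 at 24 hours, a response larger by 3.11 than that of C57, yet all SPRET libraries lay below the C57 basal libraries (406 to 444 TPM). Cyp1b1 rose from 0.359 to 0.541 to between 44.8 and 47.9 TPM, larger by 3.08, and ended above the 6.42 to 9.27 TPM of C57. For Egr2 the difference was 2.12. A larger response thus went with a lower 24-hour level in Mmp12, an overlapping one in Egr2 and a higher one in Cyp1b1. In the other direction, Gsta2 (-3.68), listed at 0 at 24 hours, and Lrrc32 (-2.85) followed Chil3.

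The widest ranges of response over the 5 strains were 4.55 in Cyp1b1 (SPRET against NOD), 4.51 in Chil3 (C57 against SPRET), 4.01 in Egr2 (SPRET against NOD), 4.00 in Ccl22 (SPRET against PWK), 3.93 in Gsta2 (BALB against SPRET) and 3.50 in Mmp12 (SPRET against NOD). Ccl22 held 48.4 to 51.6 TPM in SPRET and 34.0 to 37.1 in BALB at 24 hours, and 4.44 to 4.72 in PWK, where the basal libraries held 2.19 and 3.04. Markers of other cells moved with strain. The summed neutrophil markers were 537 to 594 TPM in PWK and 244 to 395 in SPRET against 16.4 to 130 in C57, with Ly6g at most 0.276 TPM in all strains. The fibroblast marker Dcn was 104 to 208 TPM in PWK and 3.57 to 5.85 in C57, with Col1a1 at most 0.066 TPM, and the summed macrophage markers were 9325 to 9741 TPM in PWK and 16579 to 23949 in C57. The summed markers of mast cells, basophils and eosinophils were 4.97 to 9.23 TPM in SPRET and 2.32 to 3.59 in BALB against 0.388 to 1.84 in C57, with Mcpt8 at 4.59 to 8.88 TPM in SPRET and at most 0.201 in C57. Their part in the strain results was not tested.

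Basal levels differed in both directions. Against basal C57, 4 genes were lower and 17 higher in BALB (background 2.17% and 2.65%), 14 and 15 in NOD (11.7% and 5.15%), 18 and 15 in PWK (8.81% and 4.49%) and 27 and 18 in SPRET (9.52% and 8.58%). Of the 172 other induced genes, 8 were lower and 11 higher in BALB, and 41 and 24 in NOD. Their counts were 35 and 20 in PWK and 43 and 20 in SPRET. The share lower in NOD, 15.9%, was near its background. With median-ratio scaling, which moved the median of all genes by -0.30 in NOD and -0.16 in PWK, 13 were lower and 23 higher in NOD and 17 and 15 in PWK. Ptgs2 held 6.19 to 8.28 TPM in basal C57, 25.8 to 29 in BALB, 130 to 141 in NOD and at most 0.389 in SPRET. Fn1 held 31.6 to 33.8 TPM in basal SPRET and at most 0.683 in every other strain. Egr2 was lower in PWK (-1.70) and SPRET (-2.25), and in NOD its difference of 0.97 was not called, but was called higher with median-ratio (1.36) and quantile scaling (1.19).

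Lists of related genes place the set among other IL-4 genes. Of 20 genes of the IL-4 receptor and its signalling, 19 were tested in the Egr2 table. By limma none was called lower or higher in Egr2MKO at 6 hours (3 lower and 8 higher at an unadjusted p under 0.05), and 5 rose in Egr2MKO at 6 hours, among them Socs1, a feedback inhibitor (5.15), and Cish. Il4ra, the receptor chain itself, differed by 0.47 between the genotypes at 6 hours, under the 2-fold limit. Of 4 tested EGR factors and corepressors, Egr2 was lower. Egr1 differed by -0.18 (adjusted p = 0.71), the corepressor Nab2 by -0.82 and Nab1 by 0.30, none of them called, and Egr3 and Egr4 were under the filter. Of 26 tested transcription factors of alternative activation (28 listed), 2 were lower at 6 hours, Irf4 and Bhlhe40, and 1 was higher, Maf (1.05), while 9 rose in Egr2MKO. Over all genes tested, 1.41% were lower and 0.894% higher in Egr2MKO than in Egr2WT at 6 hours, and 2.37% rose in Egr2MKO by 6 hours.

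Of 61 markers of alternative activation 55 were tested, and 17 belong to the 93. At 6 hours 9 were lower in Egr2MKO, each of them among the 17, and 4 were higher: Retnla, Ccl8, Alox15 and Cd86. Both Egr2MKO libraries at 6 hours were among those that stood apart. Alox15, a gene of the peritoneal list above, held 19.6 and 80.3 TPM in them and at most 0.892 in the other 13 libraries. Retnla held 24.1 and 254 TPM in them and was not called with only the groups compared in the fit (adjusted p = 0.16, limma). At 1 hour 8 were lower, 7 of them among the 17, and the other was Mgl2 (-1.06). In Egr2MKO 27 of the 55 rose by 6 hours (background 2.37%), 22 of them outside the 93. Arg1, arginase 1, rose by 4.16 in Egr2MKO, with 3445 TPM in Egr2WT and 2992 in Egr2MKO at 24 hours on average. Mrc1, the mannose receptor, held 671 and 1006 TPM and the chemokine Ccl24 15.5 and 15.7. Many markers of alternative activation thus rose without EGR2. Some markers, such as Itgax, Mmp12, Atp6v0d2 and Clec7a, were lower there than in Egr2WT but also rose. From basal to 24 hours in Egr2MKO, Itgax rose by 1.26, Mmp12 by 1.29, Atp6v0d2 by 2.83 and Clec7a by 2.14, with no test. The markers were listed with results of these samples known, so the counts are a description.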

How the data were processed

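RNA was measured by poly(A) RNA-seq of BMDMs. Per the study's methods, the authors aligned reads with STAR 2.5.3 to each strain's genome, shifted them to mm10 with MMARGE 1.0 and summed exons per gene with HOMER 4.11.1. The deposited values are TPM, with raw depth given per library, and the strand setting of counting is not given in the sources used here. Columns of the authors' own fold changes and p-values were not used.

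Each of the 3 tables was fitted on its own with limma 3.58.1 (R 4.3.3, trend) on log2(TPM + 1), over genes that reached 1 TPM in 2 or more libraries, which were 12079, 12088 and 11907 genes. The pseudocount understates changes of low genes. Calls needed a Benjamini-Hochberg adjusted p under 0.05 over all genes and more than 2-fold. Comparisons used 2 or 3 libraries a group. Standard errors and p-values rest on the spread between libraries of a group, pooled over all groups of a table and moderated over genes.

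The members and gene lists were chosen with earlier results of these data known. Named genes were the 12 deepest falls at 24 hours, the 10 largest differences at 6 hours, the 8 highest levels, the widest strain ranges and interactions, genes at the limits of the rule and members on the lists. Others are named as examples chosen after their values were seen. Alternatives changed pseudocount, filter, scaling, groups in the fit, replicate block and single libraries. The fit was tested on simulated data.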

Additional observations from a re-analysis of the deposited data

Results flagged for a closer look

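Each value here is a difference between the 24-hour response of another strain and that of C57, in log2(TPM + 1), tested itself as an interaction contrast in limma with more than 2-fold and an adjusted p under 0.05. Groups held 2 or 3 libraries, too few to test for a single library far from the others. The shares of all genes and the counts of the other induced genes are given with each comparison above.

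In the time course 18 genes had a smaller and 17 a larger response in SPRET. The larger ones named were Mmp12 (3.44), Ccl22 (3.15), Ear2 (2.99), Irf4 (2.80), Retnla (2.62) and Egr2 (1.98). The smaller ones were Car2 (-4.21), Chil3 (-4.08), Gsta2 (-3.76), Rbp4 (-3.37) and Ptgs2 (-2.60). Ear2 and Rbp4 passed the filter on low values only through 24-hour libraries, where they are high, so their values are a description.

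In the 5 strains, which share the C57 libraries, BALB had 12 smaller and 2 larger responses, with Scimp (-2.10), Ksr2 (-1.99), Car2 (-1.74), Snora16a (1.93) and Sfrp5 (1.19). NOD had 34 smaller ones, with Chil3 (-3.73), Tuba8 (-3.01), Rbp4 (-2.90) and Egr2 (-1.88). PWK had 27 smaller and 2 larger ones, with Chil3 (-3.57), Ksr2 (-2.42), Lrrc32 (-2.41), Snora16a (2.08) and Clec7a (1.30). SPRET had 19 smaller and 11 larger ones, with Chil3 (-4.51), Gsta2 (-3.68), Lrrc32 (-2.85), Mmp12 (3.11), Cyp1b1 (3.08) and Egr2 (2.12). Ksr2 and Rbp4 passed the filter of this table only through 24-hour libraries, so their values are a description.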

How the results depend on the processing

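Of the counts recomputed under the alternatives, 497 stayed within 1.5 times the reported count and 52 did not. Of the values of single genes, 1863 kept direction and side of the threshold, 67 lost the call, 23 gained it and 9 changed sign. With a pseudocount of 0.1 TPM, 24 genes rose in Egr2MKO at 6 hours, 41 in NOD, 1 responded more in BALB than in C57, 28 were higher in basal BALB and 25 lower in basal NOD. With 5 TPM, 18 were lower and 2 higher in Egr2MKO at 6 hours, 11 were lower at 1 hour, 6 rose between 1 and 6 hours in Egr2WT, and 9 and 2 rose in Egr2MKO at 6 and 1 hours. The time course then had 6 at 1 hour and 19 between 6 and 24 hours in C57, and 23 at 6 hours and 9 between 6 and 24 hours in SPRET. The strains had 38 for C57, 23 for BALB, 8 for NOD, 16 for PWK and 27 for SPRET. Smaller responses were 4 for BALB, 19 for NOD, 11 for PWK and 8 for SPRET, with 1 larger in BALB. Genes with a higher basal level were 4 for BALB, 7 for NOD, 9 for PWK and 10 for SPRET, and 8 were lower in PWK. Without a filter 1 gene responded more in BALB, and with a filter of 5 TPM 1 did in PWK. Median-ratio and quantile scaling left 11 and 12 called in NOD and gave 23 and 24 higher in basal NOD. With only the groups compared in the fit, 0 were higher in Egr2MKO at 6 hours (Retnla, adjusted p = 0.16), 1 was higher at 1 hour, and 1 each responded more in BALB and PWK. Lat, Tuba8, Galnt9, Cdh1, Ak8, Dnmt3aos and Mir6914 then lost their calls as lower at 6 hours (adjusted p = 0.055 to 0.18, limma). The cause was not tested.

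Leaving out single libraries gave 42 to 52 lower and 1 to 5 higher in Egr2MKO at 6 hours, 0 to 1 higher at 1 hour, and 1 to 3 and 1 to 2 with a larger response in BALB and PWK. The sign changed for Egr2 in NOD (-0.098 with median-ratio and -0.022 with quantile scaling). With single libraries left out, values ran across 0 for Plekhf1 at 1 hour (-0.157 to 0.134), Bcl2a1d at 1 hour (-0.037 to 0.079), Retnla in the C57 time course at 24 hours (-0.051 to 0.064), Chil3 in the SPRET time course at 24 hours (-0.071 to 0.744) and Mir7084 in NOD against C57 (-0.440 to 0.839). None of these reported values was called. Same-numbered libraries of different groups correlated in their deviations above 0.1 in 0 of 56 pairs in the Egr2 table, 6 of 56 in the time course (highest r = 0.266) and 9 of 126 in the 5 strains (highest r = 0.333), so the numbers were not taken to pair them, and the replicate block left 44 genes lower at 6 hours. Depth was not a term of any fit.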
